A study of Homo sapiens with 6 samples.

Results

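Readthrough transcription was examined in 216 regions whose names matched no single gene of the authors' deposited gene table, out of 2014 downstream-of-gene (DoG) regions in their region table. A DoG region is a stretch past the annotated end of a gene where transcription continues, and most carry the name of 1 gene (1798 regions). The 216 are the other rows: 189 join several names with "&", and 27 carry a single name that the gene table lacks. The cells were MDA-MB-231, an established line from a triple-negative breast cancer, with 3 control libraries and 3 from cells where doxycycline switched on lentiviral short hairpins against UBE3D, a ubiquitin ligase gene. The control's hairpin and doxycycline status are not named in the labels. Every sample is marked as pooled and no separate cultures are named, so p-values cover only the spread between these libraries, possibly a technical one.

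Each row of the authors' deposited tables gives a mean normalized count over all libraries, a log2 fold change of knockdown over control with its standard error (SE), and p-values from DESeq2. Changes are written below as log2 fold change ± SE. Values per library were not analysed here, so no value per replicate can be given and the depth is unknown. The fold changes are shrunken toward 0, and the SE of the 216 regions ranged from 0.068 to 0.38 in log2 units. UBE3D, the target of the hairpins, was lower in the authors' deposited table (log2 fold change -0.80 ± 0.37, adjusted p = 0.00632). Of 15 marker genes in the authors' deposited table, mesenchymal ones were abundant (means of 7835 for VIM and 11376 for AXL), as were the keratins KRT8 (3626) and KRT18 (2490), and the hormone receptor gene ESR1 had a mean of 22.2. Among the 15, CDH1 rose by 1.06 ± 0.39, and CAV1 (-1.68 ± 0.15), EPCAM (-0.67 ± 0.21), VIM (-0.34 ± 0.16) and CD44 (-0.26 ± 0.12) fell, and their part in the region results was not tested. These are bulk libraries, in which fewer expressing cells and less RNA per cell cannot be told apart.

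RNA polymerase normally stops after the nascent transcript has been cut and polyadenylated, and XRN2 degrades the RNA left behind the cut. When cutting or termination is late, transcription runs on into the next stretch of the genome. A microRNA is cut as a hairpin from a longer primary transcript by Drosha and DGCR8, often from an intron of a coding gene. Most human small nucleolar RNAs (snoRNAs) are likewise released from introns, typically of ribosomal protein genes or of noncoding host genes, and guide the chemical modification of ribosomal RNA. A host gene and the small RNAs inside it share one transcript and one stretch past its end, so a single readthrough region can carry all of their names.

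The names of the 216 regions hold 496 components: 140 microRNAs, 96 snoRNAs or Cajal body RNAs, and 260 other genes. By symbol, 477 components were placed in GENCODE 29 on GRCh38. Among the 184 joined names with more than 1 component placed, 181 had all of them on the same strand of a chromosome, and in 178 they formed a single overlapping block. Of the microRNAs, 81 lay in an intron of a named host gene, 35 touched a host exon and 1 lay outside its host. The other 23 had no placed host on their strand within the name. Most of these are microRNAs named alone, some of which lie in genes outside the name. Of the snoRNAs, 42 were intronic and 43 touched an exon. A joined name is therefore mostly a host gene with the small RNAs nested in it. Most joined names have 2 components (134 regions) or 3 (35 regions). The longest holds 11, the noncoding gene GAS5 with its SNORD box C/D snoRNAs.

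The mature microRNAs below belong to regions with large changes or that exceeded their host gene, and to regions that face each other on the 2 strands. They are RefSeq sequences on GRCh38.p14, used for 126 of the 140 microRNA genes. The other genes were either not found or left out, and MIR30B and MIR30D are among those left out. Capitals mark the seed, bases 2 to 8, which pairs with target transcripts. The first 3 are from the largest falls, the next 3 from regions that were raised or that exceeded their host gene.
hsa-miR-3142: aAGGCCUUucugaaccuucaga
hsa-miR-146a-5p: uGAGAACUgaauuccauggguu
hsa-miR-138-5p: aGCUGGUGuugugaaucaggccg
hsa-miR-6797-5p: aGGAGGGAaggggcugagaacagga
hsa-miR-6852-5p: cCCUGGGGuucugaggacaug
hsa-miR-147b-3p: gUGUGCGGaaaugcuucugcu
The 6 seeds differ from each other. Over the 202 mature sequences of these 126 genes, 10 seeds were shared by more than 1 gene, covering 16 genes. Seeds of the genes without a sequence here were not compared, so the count does not cover all 140.

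The snoRNA ends below, the last 30 bases on GRCh38 from GENCODE 29, are from raised regions. Capitals mark the ACA of the box H/ACA class, which guides pseudouridylation and stood 3 bases from the end in each, or the CTGA of box D in the class that guides ribose methylation.
SNORA73A: ctggggagacaaaccatgcaggaaACAgcc
SNORA73B: ctggggagacaaaccatgcaggaaACAtat
SNORA7A: ctggcgattggaagacactctgcgACAgtg
SNORA58: gctggataaattgcaggactctaaACAttt
SNORD72: attgatttcagcatttaaCTGAgataagcg
SNORD12C: tattttgccagttagttCTGAtacatcggc
Both classes occur in raised regions. Regions with SNORA names were raised in 6 (23.1%) and lowered in 2 (7.69%) of 26 cases in the authors' deposited table. Those with SNORD names were raised in 4 (14.8%) and lowered in 3 (11.1%) of 27. Regions that hold both kinds of name count in both. Among all regions 12.7% rose and 16.1% fell.

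Of the 216 regions, 34 rose and 39 fell, with 143 not passing, by an adjusted p below 0.05 in the authors' deposited table. These are 15.7% and 18.1% of the members, beside 12.7% raised and 16.1% lowered among all 2014 regions. At least 2-fold changes after shrinkage were few, with 2 rises and 2 falls. The median log2 fold change of the members was 0.01, beside -0.01 over all regions. Raised members were of low to moderate abundance, with a median mean of 196 normalized counts and none above 460.2. Lowered members had a median of 597 and reached 4823. None of the 33 members with a mean of at least 1000 rose and 12 fell, and of the 36 with a mean under 100, 7 rose and none fell, in the authors' deposited table. Over all regions, the 273 with a mean of at least 1000 held 14 rises and 82 falls. The 349 with a mean under 100 held 56 rises and 14 falls. The split by mean thus had the same direction over all regions and was not particular to the members.

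The balance of rises and falls depends on how the region table is scaled. A total of 41 members had a mean within 1.25-fold of an expressed gene on the other strand (described further down). In 38 of these 41 the opposite gene's log2 fold change was the higher value, by a median of 0.10, and over all 373 such regions it was higher in 343, by a median of 0.10 (quartiles 0.079 and 0.13). When every region was raised by that median gap and put to a Wald test on the deposited log2 fold change and SE, 24 members rose and 15 fell. The same Wald test without the gap gave 18 rises and 26 falls, since it is the stricter test on shrunken values. How the authors scaled each table is not given in the sources used here, and the cause of the gap was not tested.

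**Figure D1:**
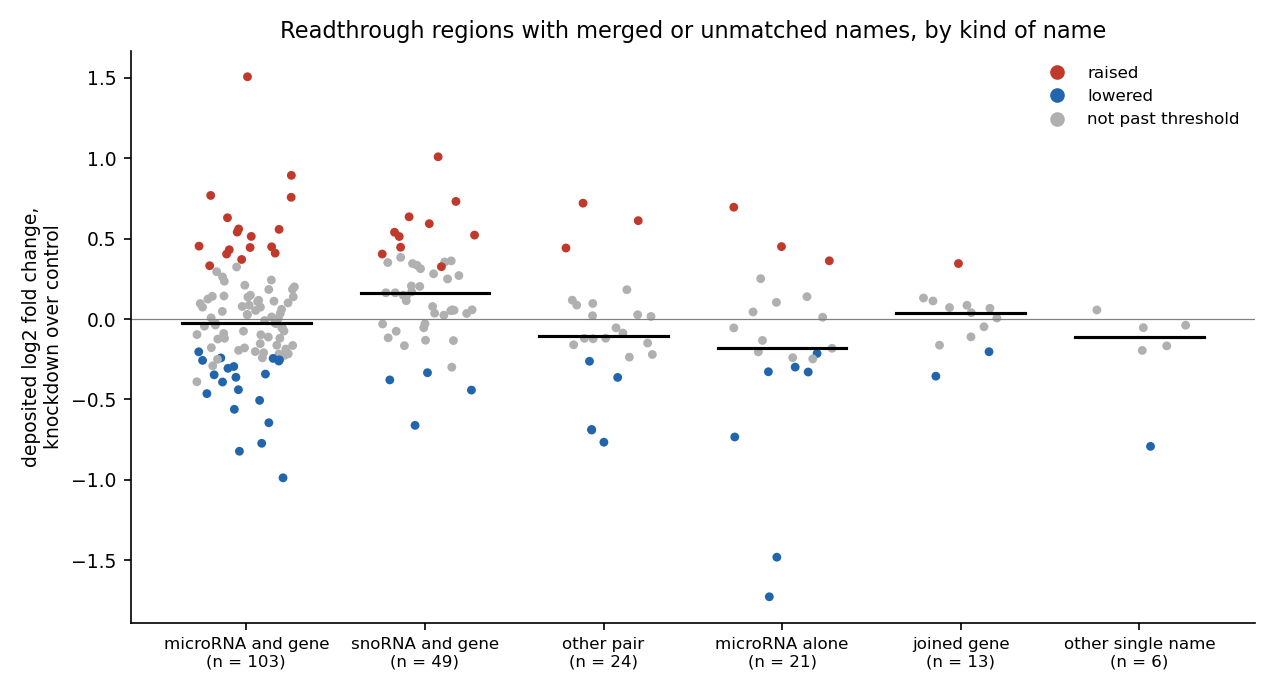
Each point is 1 of the 216 regions, by kind of name (x axis) and deposited log2 fold change of knockdown over control (y axis), with black lines at the class medians. Red points rose and blue points fell at an adjusted p under 0.05; the snoRNA class has the highest median (0.16) and the 2 lowest points are the microRNA regions MIR3142 and MIR146A.

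Regions that join a microRNA with a gene were the largest class, with 103 members (median log2 fold change -0.03). Of these, 17 rose (16.5%) and 20 fell (19.4%) in the authors' deposited table, beside 12.7% and 16.1% over all regions. The largest rise of all members was downstream of RPS19, the gene of a small ribosomal subunit protein, whose intron holds MIR6797 (named locus chr19:41859918-41872926, GRCh38, plus strand). The authors' deposited table gives this region a mean of 449.7 and a log2 fold change of 1.51 ± 0.14 (adjusted p = 3.50e-28), a 2.84-fold rise. RPS19 itself had a log2 fold change of 0.27 in the authors' deposited table (SE 0.13, adjusted p = 0.0607). The region downstream of TPRA1 with MIR6825 and MIR7976 rose by 0.89 ± 0.22, that of TLN1 with MIR6852 by 0.77 ± 0.17, and that of DYRK1B with MIR6719 by 0.76 ± 0.32, in the authors' deposited table. TLN1 encodes talin, which links integrins to actin, and DYRK1B is a protein kinase. Neither TPRA1, TLN1 nor DYRK1B passed the threshold as a gene.

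Of the 20 falls in this class, 4 had a host that also fell, namely ZNRF2, BMP2K, HMGA1 and MCAM, and the hosts of the other 16 did not pass. The region of WNT9A and MIR5008 (WNT9A encodes a Wnt ligand) fell by 0.99 ± 0.17 in the authors' deposited table, while WNT9A itself, at a mean of 36.6, did not pass (log2 fold change -0.25 ± 0.25). The region of ZNRF2, a ubiquitin ligase gene, fell by 0.82 ± 0.27 and ZNRF2 by 0.59 ± 0.17, per the authors' deposited table. The region of BMP2K, a kinase gene, fell by 0.77 ± 0.14 and BMP2K by 0.42 ± 0.18, per the authors' deposited table. For HMGA1, a chromatin architectural protein, the region fell by 0.65 ± 0.20 and the gene by 0.62 ± 0.13, per the authors' deposited table.

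Regions that carry only a microRNA name numbered 21 (median log2 fold change -0.18). Of these, 3 rose (14.3%) and 7 fell (33.3%) in the authors' deposited table, beside 12.7% and 16.1% over all regions. MIR3142 (chr5:160474402-160474483) had a mean of 288 and fell by 1.73 (SE 0.22, adjusted p = 1.81e-15), 3.31-fold lower in the authors' deposited table. MIR146A (chr5:160485352-160485450) had a mean of 122 and fell by 1.48 ± 0.38 (adjusted p = 3.88e-06) in the authors' deposited table. The pair lie 10869 bases apart on the plus strand, MIR3142 in an intron and MIR146A in an exon of the noncoding gene MIR3142HG, so the regions lie in the same annotated transcription unit and were not taken as independent. miR-146a is known as an NF-kappaB-induced brake on inflammatory signalling. MIR138-1, which overlapped no other GENCODE 29 gene, fell by 0.73 ± 0.13 (adjusted p = 5.73e-08) at a mean of 500.2, per the authors' deposited table.

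The rises in this class included a second cluster. MIR30D had a mean of 193 and rose by 0.70 ± 0.16 (adjusted p = 7.59e-06), and MIR30B, 4269 bases away on the same strand, had a mean of 460.2 and rose by 0.36 ± 0.19 (adjusted p = 0.0401), per the authors' deposited table. MIR130A rose by 0.45 ± 0.26 (adjusted p = 0.0338) in the authors' deposited table. A microRNA region could also differ from the gene around it: MIR3975 lies in an intron of GALNT1, a glycosyltransferase gene that fell by 1.53 ± 0.16, and its region had a log2 fold change of -0.18 ± 0.21 (adjusted p = 0.362) in the authors' deposited table. These values measure RNA past the hairpins, not the mature microRNAs.

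**Figure D2:**
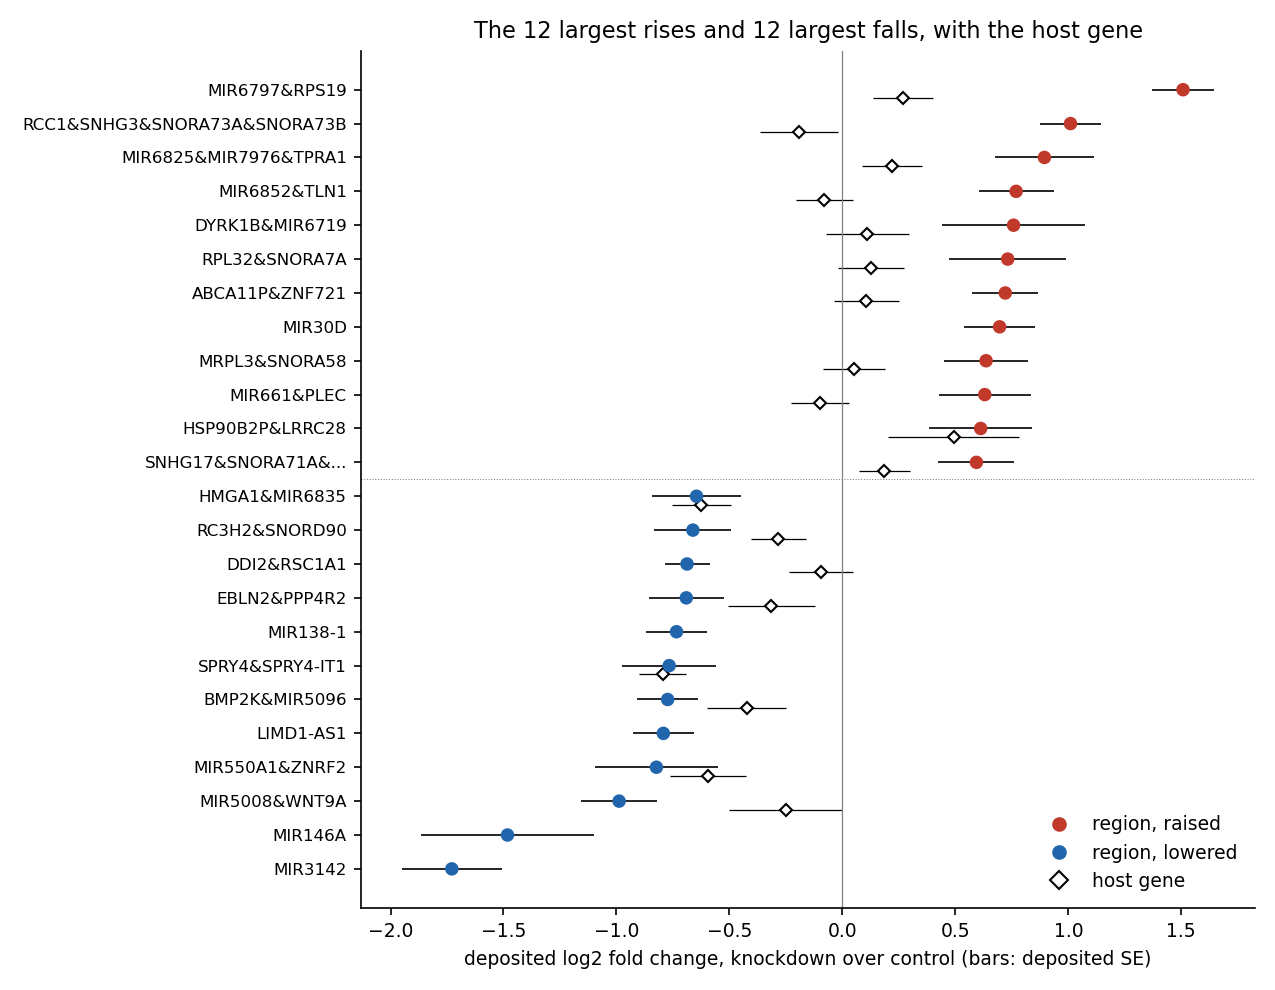
The 12 largest rises (red) and 12 largest falls (blue) are shown by deposited log2 fold change (x axis) with bars for the deposited SE; open diamonds give the component with the highest mean in the gene table, which for the RCC1 region is SNORA73A. The regions MIR30D, MIR138-1, LIMD1-AS1, MIR146A and MIR3142 have no component in the gene table and so no diamond.

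Regions that join snoRNAs with a host gene rose more often than they fell. Of 49, 10 rose (20.4%), 4 fell (8.16%) and 36 (73.5%) had a log2 fold change above 0 in the authors' deposited table (median 0.16). Over all regions 48.4% lay above 0. The snoRNA regions had a lower median mean (133, beside 264 over all regions). Of all regions, 68.2% of those with a mean under 100 and 53.9% of those from 100 to 300 lay above 0. The component of highest mean had a median log2 fold change of 0.08, and the median of region minus that component was 0.03. The region shared by RCC1, the nucleotide exchange factor of Ran, with SNHG3, SNORA73A and SNORA73B (named locus chr1:28505943-28539300, plus strand) rose by 1.01 ± 0.13 (adjusted p = 4.22e-14) at a mean of 240 in the authors' deposited table. Its components differed: in the authors' deposited table RCC1 rose by 0.38 ± 0.17 and SNHG3 by 0.28 ± 0.14, while SNORA73A had a log2 fold change of -0.19 ± 0.17 and SNORA73B one of -0.15 ± 0.17. Other rises were those of RPL32 with SNORA7A (0.73 ± 0.26), MRPL3 with SNORA58 (0.64 ± 0.18), SNHG17 with its SNORA71 copies (0.59 ± 0.17) and GLTSCR2 with SNORD23 (0.54 ± 0.14), in the authors' deposited table. RPL32 and MRPL3 encode proteins of the cytosolic and the mitochondrial ribosome.

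Among snoRNA regions, 13 had a noncoding host gene in the name and held 5 rises (38.5%) and no fall in the authors' deposited table. These 13 include the RCC1 and MATR3 regions, whose names also hold a coding gene. The 13 with ribosomal protein hosts held 2 rises (15.4%) and 1 fall (7.69%). Over all regions 12.7% rose and 16.1% fell. Counting microRNA and other names too, 18 regions belonged to ribosomal protein genes, of which 3 rose (16.7%) and 1 fell, and 16 (88.9%) had a log2 fold change above 0. The largest fall of a snoRNA region was that of RC3H2, a regulator of mRNA decay, with SNORD90 (-0.66 ± 0.17, mean 1004), and RC3H2 itself fell by 0.28 ± 0.12, per the authors' deposited table. Of the 49 snoRNA regions 35 did not pass, and among them the GAS5 region had a log2 fold change of -0.03 ± 0.10 and that of SNHG16 one of -0.05 ± 0.17 in the authors' deposited table. The 23 snoRNA regions with no expressed gene on the other strand held 7 rises and 1 fall, and 21 of them (91.3%) lay above 0, beside 59.7% of all regions with no such gene. The 26 with such a gene held 3 rises and 3 falls. With all regions raised by the median gap, the Wald test called 7 rises and 1 fall among the 49.

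The remaining classes were small. Of 24 regions that join other genes, 3 rose (12.5%) and 5 fell (20.8%) in the authors' deposited table, beside 12.7% and 16.1% over all regions. SPRY4, an inhibitor of receptor tyrosine kinase signalling, and its intronic transcript SPRY4-IT1 share a region that fell by 0.77 ± 0.21, and the genes fell by 0.80 ± 0.11 and 0.83 ± 0.32, in the authors' deposited table. The DDI2 and RSC1A1 region fell by 0.69 ± 0.10, as did that of EBLN2 and PPP4R2 (SE 0.16). The region of ZNF721 and the pseudogene ABCA11P rose by 0.72 ± 0.15 in the authors' deposited table. Of 13 regions that hold a joined gene, meaning a transcript annotated across 2 neighbours, 1 rose (7.69%) and 2 fell (15.4%). The merged region of ERCC6 and PGBD3 rose by 0.35 ± 0.12, and those of LY75 and CD302 (-0.36 ± 0.16) and of RNF103 and CHMP3 (-0.20 ± 0.08) fell, in the authors' deposited table. The joined transcript RNF103-CHMP3 itself, at a mean of 8.16, had a log2 fold change of 0.34 ± 0.49 (adjusted p = 0.166) in the authors' deposited table. The 6 other single names held 1 fall (16.7%), that of LIMD1-AS1 (-0.79 ± 0.14).

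The gene table gives the components' own values. In the gene table, 229 components were neither microRNAs nor snoRNAs or Cajal body RNAs, and some of them are pseudogenes. Of these 229, 14 rose and 17 fell, beside 4.62% raised and 7.93% lowered among all 20115 genes. None of 55 snoRNA components passed, with log2 fold changes from -0.31 to 0.22 and 1 at an unadjusted p under 0.05 from DESeq2 in the authors' deposited table. None of 4 microRNA components passed either, and none had an unadjusted p under 0.05. The median mean of the snoRNA components was 17.2 normalized counts. Of the 14 raised genes, 7 belonged to a raised region (6 distinct regions) and 0 to a lowered one. Of the 17 lowered genes, 7 belonged to a lowered region (6 distinct regions) and 1, ZFAS1, to a raised one. Over all regions, raised hosts (defined below) had a raised region in 67 cases, a lowered region in 7 and neither in 81. Lowered hosts had a lowered region in 64 cases, a raised region in 6 and neither in 91. The deepest fall of a component was that of ATP5E, a subunit of ATP synthase (-1.19 ± 0.26), whose region had a log2 fold change of 0.13 ± 0.19 in the authors' deposited table.

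Each region with a component in the gene table (189) was set against that component, or the one with the highest mean where there were several, called its host here. The difference of the deposited log2 fold changes was divided by its own SE (from both SEs, taken as independent), tested against a normal distribution and adjusted over all 1987 regions with a host. Of the 189, 8 regions exceeded their host and 2 fell below it, beside 4.08% and 4.23% over all such regions. These counts moved with the settings: 19 above and 13 below with the SEs of region and host correlated at 0.5, and 15 above and 0 below with regions raised by the median gap described above. Of 31 raised members with a host, the host was raised in 4, lowered in 1 and not past the threshold in 26. Over all raised regions with a host, it was raised in 67, lowered in 6 and not past the threshold in 179. Of 31 lowered members with a host, it was lowered in 6 and not past the threshold in 25. Over all lowered regions with a host, it was lowered in 64, raised in 7 and not past the threshold in 246.

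The regions above their host were of 2 kinds. In the first the region rose while the host did not pass: the RPS19 region exceeded RPS19 by 1.24 ± 0.19, the TLN1 region exceeded TLN1 by 0.85 ± 0.21, and the region of PLEC, which encodes the cytolinker plectin, exceeded PLEC by 0.73 ± 0.24. The RCC1 region exceeded SNORA73A, its host by highest mean, by 1.20 ± 0.22. It exceeded RCC1 by 0.62 ± 0.21 and SNHG3 by 0.72 ± 0.19, and both of these genes passed as raised. The ABCA11P and ZNF721 region exceeded ZNF721 by 0.62 ± 0.20 but the pseudogene ABCA11P by 0.07 ± 0.27. ABCA11P itself rose by 0.65 ± 0.23. In the second kind the host fell and the region did not. C15orf48, which carries MIR147B, fell by 0.85 ± 0.19 and CHPF2, a chondroitin synthesis gene with MIR671, by 0.72 ± 0.09, while their regions had log2 fold changes of 0.10 ± 0.20 and 0.00 ± 0.17 in the authors' deposited table. ZFAS1 combined both: the gene fell by 0.41 ± 0.14, and its region with 3 SNORD12 copies rose by 0.51 ± 0.28.

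The regions below their host were DDI2 and RSC1A1 (difference -0.59 ± 0.17, adjusted p = 0.0110) and AGPAT1 with MIR6721 (-0.52 ± 0.15, adjusted p = 0.0114), by the normal test on deposited values. Both lost the call when regions were raised by the median gap described above, with adjusted p = 0.0509 and 0.0659. DDI2 is a protease and AGPAT1 an acyltransferase of lipid synthesis.

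**Figure D3:**
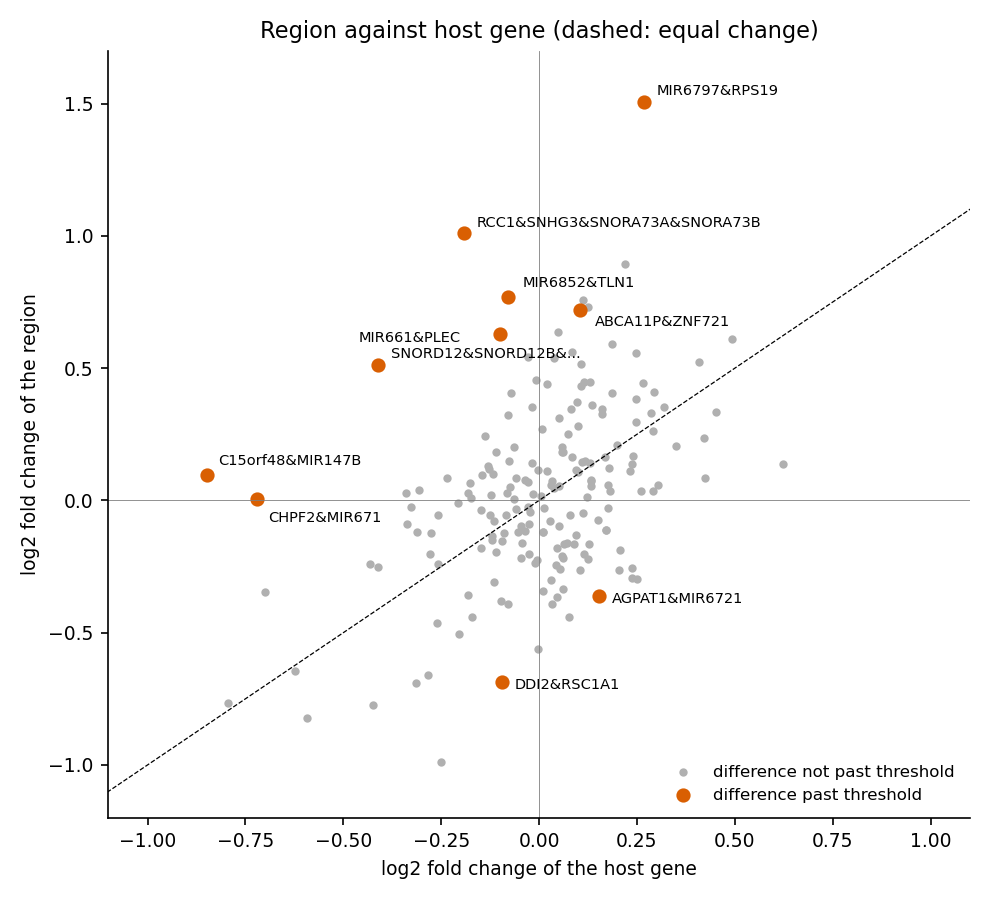
Each of the 189 regions with a host is placed by the deposited log2 fold change of the host (x axis) and of the region (y axis), with a dashed line at equal change. The 10 orange points passed the test of the difference; 8 lie above the line, led by MIR6797&RPS19 with a difference of 1.24, and 2 below.

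Many regions run toward a gene on the other strand. For 123 of the 215 members with coordinates, a gene with a mean of at least 50 overlapped the 10 kb past the end of the named locus on the opposite strand (the one of highest mean was kept). These 123 held 7 rises and 26 falls, with 41.5% above 0, and the 92 without such a gene held 27 rises and 13 falls, with 67.4% above 0, in the authors' deposited table. The groups also differed in abundance, with median means of 364 and 147. Over all placed regions the 1035 with an opposite gene held 6.09% rises and 20.5% falls (members 5.69% and 21.1%), with 37.8% above 0, and the 948 without held 19.9% and 11.3% (members 29.3% and 14.1%), with 59.7% above 0. The same direction of split thus held over all regions. After raising all regions by the gap, the Wald test gave 4 rises and 6 falls with an opposite gene, and 20 and 9 without.

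Levels in these 123 regions followed the opposite gene. The log2 means of region and opposite gene had a Pearson r of 0.71 (Spearman rho 0.67), while region and host had an r of -0.19 over the 106 of them with a host. For log2 fold changes, r was 0.70 (rho 0.78) with the opposite gene and 0.34 (rho 0.20) with the host. Regions are not independent points, and region and opposite gene come from the same libraries. Of the 106, 77 had a mean nearer to that of the opposite gene than to the host's, and 71 a nearer log2 fold change. In members without an opposite gene, region and host had an r of 0.48 (rho 0.45) over 83 regions.

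The most abundant members give examples, and not all of them matched an opposite gene. The region named for SLC35B2 and MIR4647 had a mean of 22461, the highest of all members, where SLC35B2 had 675 and the convergent chaperone gene HSP90AB1 had 21820, in the authors' deposited tables. The region of WDR46 and MIR6873 had a mean of 7569, WDR46 895 and the opposite ribosomal gene RPS18 7170. The region of CDH23 and MIR7152 had a mean of 4823 and fell by 0.56 ± 0.15, while CDH23 (mean 155) had a log2 fold change of 0.00 and the opposite gene PSAP, a lysosomal protein precursor, fell by 0.41 (mean 6183), per the authors' deposited tables. MIR374C went the other way: its region had a mean of 3339, while FTX, the noncoding gene it lies antisense to, had 94.1. The log2 fold changes were -0.24 ± 0.14 for the region and 0.20 ± 0.16 for FTX, and neither passed the threshold. LIMD1-AS1 lies antisense to LIMD1, which fell by 0.62 ± 0.14. Levels were set side by side although the 2 tables may have been scaled separately and are not per length. The library kit was stranded, per the labels' protocols, but the strand setting of the counting is not given in the sources used, so reads of a region and of its antisense partner cannot be told apart.

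**Figure D4:**
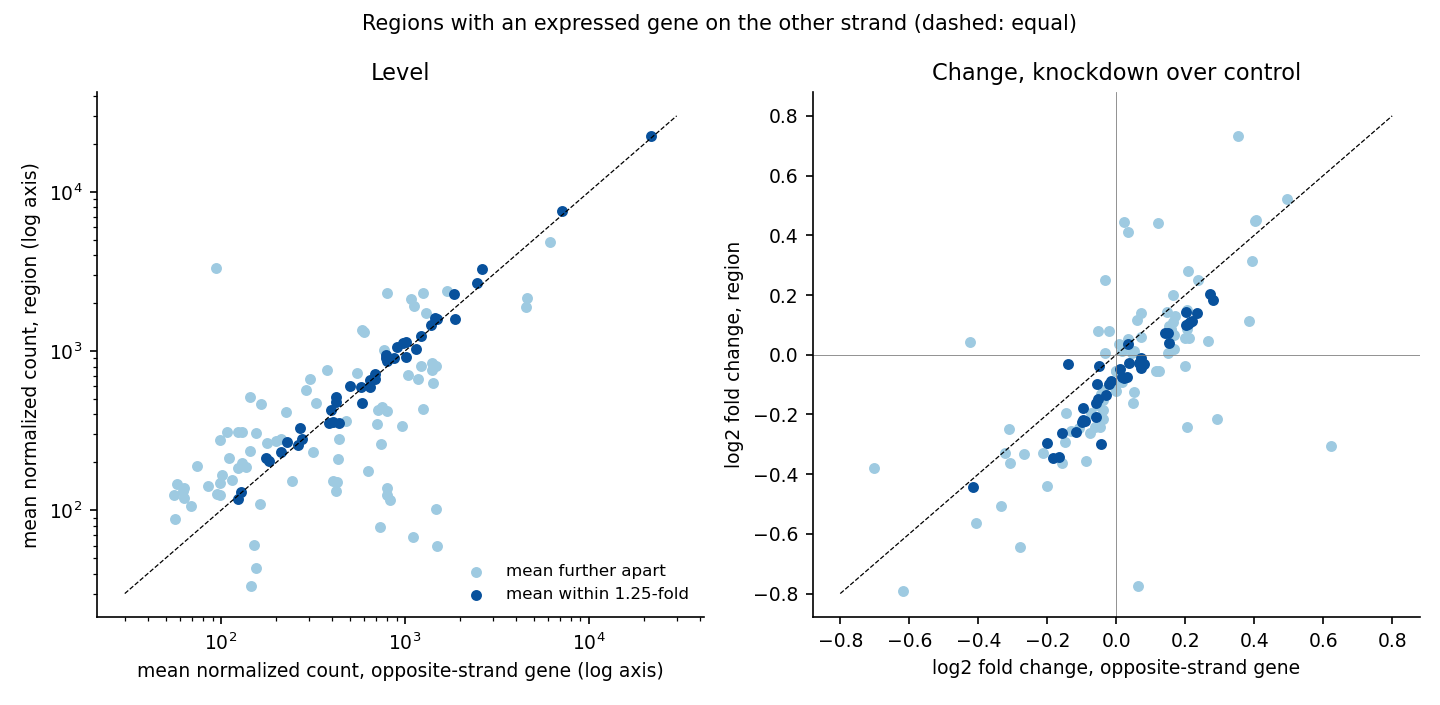
Left, mean normalized count of the opposite-strand gene (x, log axis) and of the region (y, log axis) for 123 members; right, their deposited log2 fold changes, both with a dashed line at equality. Dark points are the 41 with means within 1.25-fold, and on the right 38 of them lie below the line, by a median of 0.10.

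Some members are antisense to each other, with the small RNAs on opposite strands of the same stretch. The mature sequences below are shown because 1 of each pair is complementary to the other over the stated run.
hsa-miR-103a-3p: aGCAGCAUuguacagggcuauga
hsa-miR-103b: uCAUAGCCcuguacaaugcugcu
hsa-miR-499a-5p: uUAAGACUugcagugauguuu
hsa-miR-499b-3p: aACAUCACugcaagucuuaaca
hsa-miR-24-3p: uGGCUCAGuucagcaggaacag
hsa-miR-3074-5p: gUUCCUGCugaacugagccag
The runs are 23 bases for miR-103a-3p with miR-103b, 20 for miR-499a-5p with miR-499b-3p and 20 for miR-24-3p with miR-3074-5p. The seeds differ within each pair shown. However, miR-499a-3p, from the other arm of MIR499A, has the same seed as miR-499b-3p. MIR103B2 fell by 0.30 ± 0.10, and the facing region of PANK2, a coenzyme A synthesis gene, with MIR103A2 had a log2 fold change of -0.22 ± 0.12 (adjusted p = 0.104) in the authors' deposited table. The MYH7B region with MIR499A fell by 0.25 ± 0.10, and MIR499B had a log2 fold change of 0.25 ± 0.27 (adjusted p = 0.240) in the authors' deposited table. MIR3074 fell by 0.21 ± 0.07, and the facing C9orf3 region with MIR24-1 had 0.03 ± 0.12 (adjusted p = 0.865) in the authors' deposited table. In each pair 1 member passed the threshold, and the difference between the strands was not tested.

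Genes that make the small RNAs or end transcription were mostly not past the threshold. The same was true of all 20115 genes, of which 4.62% rose and 7.93% fell. Of 4 microRNA processing genes, DICER1, which cuts the hairpin into its mature form, fell by 0.53 ± 0.15 (adjusted p = 0.000378) in the authors' deposited table, while DROSHA, DGCR8 and XPO5 did not pass. None of 12 snoRNP genes passed by DESeq2, among them FBL (0.13 ± 0.15) and DKC1 (-0.16 ± 0.13), the enzymes of the box C/D and H/ACA particles. Of 11 cleavage and termination genes, PCF11 rose by 0.52 ± 0.12 and RPRD1B fell by 0.25 ± 0.09, and CPSF3, which encodes the endonuclease CPSF73, had a log2 fold change of -0.12 ± 0.13, in the authors' deposited table.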

How the data were processed

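Total RNA of 6 libraries was depleted of ribosomal RNA and sequenced as stranded 75 bp pairs, per the labels' protocols. Tools named in the submitters' processing notes are STAR 2.5.2b, cutadapt 1.8.1 and DESeq2, with build hg38. For the annotation, the calling of DoG regions and the strand setting of counting, the source is silent: not given in the sources used here. Per the file headers, the authors deposited a mean normalized count (a signal), a log2 fold change with its SE (log2), and a p-value with its adjusted p-value for 20115 genes and 2014 regions. The depth is unknown.

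From these values, calls (adjusted p under 0.05), region-minus-host differences (normal test, Benjamini-Hochberg) and splits by opposite-strand gene were computed in Python 3.11.15 (numpy 2.4.6, pandas 2.3.3, scipy 1.17.1). On simulated data the difference test called 32% of planted log2 differences of 0.5 and 89% of those of 1. Of its calls, 5.47% were unplanted. The simulated errors were independent and unshrunken, so correlated errors and shrinkage were not covered. Named regions were the 12 largest rises and falls, up to 6 per class by p, the 5 highest means, the largest differences and all with at least 4 components. These gave 64 regions; others were chosen after their values were seen. Positions come from GENCODE 29. Members and lists were chosen with earlier results of these data known. Alternatives were other thresholds, minimum means, scalings and hosts.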

Additional observations from a re-analysis of the deposited data

How the results depend on the processing

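No paired analysis was possible because the deposited tables hold 1 comparison and no value per library, so no replicate could be left out either. At an adjusted p under 0.01, 44 members were called (20 raised, 24 lowered) in place of 73 (34 and 39), 4 regions differed from their host (4 above, 0 below) in place of 10 (8 and 2), and 15 component genes (5 raised, 10 lowered) in place of 31 (14 and 17). A Wald test of the deposited values called 44 members, 18 of them raised, and 29 of the 73 calls were lost, and after a shift to a median of 0 it called 43 (19 raised, 24 lowered), with 11 component genes (3 raised, 8 lowered). The Wald test gives larger p-values than the deposited ones because the fold changes are shrunken. Regions with 1 component in the gene table gave 6 differences (5 above, 1 below), and SEs correlated at 0.5 gave 32 (19 above, 13 below). With the first named component as host, the differences of ABCA11P&ZNF721 and of the ZFAS1 region did not pass. Thresholds of 0.1 and minimum means left each total within 1.5 times.

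Other alternatives were chosen after seeing the data. Members without an opposite-strand gene held 40 calls, 13 of them lowered. With regions raised by the median gap, the Wald test called 39 members (15 lowered), and 15 regions lay above and 0 below their host. A 5 kb window for the opposite gene, and small RNAs left out as hosts, kept each count within 1.5 times. No named region that passed could change direction under these settings. The largest shift was 0.10, and the called change nearest 0 was -0.20. Precision is limited to the deposited SE.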
